A study of Mus musculus with 4 samples.

Results

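The genes described here are 48 regulators of the cell cycle and of the p53 response, picked out of the tables by a list of symbols drawn up with earlier results of these data known. They are cyclins, cyclin-dependent kinases (CDKs), CDK inhibitors, the kinase WEE1 and the CDC25 phosphatases, E2F and RB factors, p53 with MDM2 and MDM4, and 7 genes that p53 activates. In the deposited tables they occupied 49 of 19645 features, because *Ccne2* is listed as 2 features with the same coordinates. RNA depleted of ribosomal RNA was measured in mouse embryonic stem cells (ESCs), pluripotent cells that divide rapidly, as 2 libraries of WT ESCs and 2 libraries of *Bmal1* KO ESCs. The KO cells are 1 line selected after CRISPR-Cas9 editing. In them a small deletion shifts the reading frame of *Arntl*, which encodes the clock factor BMAL1. Both lines were kept undifferentiated on gelatin in medium with serum and leukaemia inhibitory factor (LIF). The methods call the libraries of each line biological replicates, and neither they nor GEO's labels say how the cultures were separated, so the p-values measure the spread between such replicates of 1 line. The effect of the *Arntl* deletion and any other difference between the KO line and the WT line cannot be told apart.

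Progress through the cell cycle is driven by cyclins, which activate CDKs. D cyclins with CDK4 or CDK6 and E cyclins with CDK2 phosphorylate the RB proteins, and this releases the activating E2F factors that switch on genes of DNA replication. A and B cyclins with CDK1 then drive the cell into mitosis, where WEE1 restrains CDK1 and CDC25 phosphatases free it. The INK4 proteins (*Cdkn2a* to *Cdkn2d*) inhibit CDK4 and CDK6, and the CIP/KIP proteins (*Cdkn1a*, *Cdkn1b*, *Cdkn1c*) inhibit several cyclin-CDK complexes. The factor p53 is kept low by MDM2, accumulates after DNA damage, and activates genes of cell cycle arrest, apoptosis and antioxidant defence. In tissues with a running clock, BMAL1 and CLOCK bind E-box sequences, and *Wee1* is a known E-box target. ESCs are known for a short G1 phase, abundant cyclin E and a clock that does not oscillate.

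Motifs of 5 kinds that cell cycle, p53 and clock factors are known to bind were looked for in RefSeq promoter windows, which run from 250 bases before to 50 bases after a start site (build GRCm38.p6, the files' build being GRCm38). They were the E-box CACGTG, the cell cycle homology region TTTGAA, the CCAAT box CCAAT, the E2F sites TTTGGCGC, TTTCCCGC, TTTGGCGG and TTTCCCGG, and the 10-base unit of the p53 response element, each on both strands and none contained in another. Windows were found for 36 of the 48 genes, 46 windows in all. The genes without one were *Ccna2*, *Ccnd1*, *Ccnd2*, *Ccne2*, *Ccnh*, *Wee1*, *Cdc25c*, *E2f4*, *E2f5*, *Rb1*, *Trp53inp1* and *Pmaip1*. The windows of *Cdkn2a*, *E2f7*, *E2f8* and *Sesn1* are shown because these are the genes with a window whose RNA fell in KO, and that of *Ccnb1* as that of a mitotic gene whose levels interleaved between the lines. Capitals mark every motif match. The first *Cdkn2a* window belongs to the transcript that encodes p19ARF and the other to the one that encodes p16INK4a.
Cdkn2a, p19ARF start, chr4:89294570-89294869, minus strand: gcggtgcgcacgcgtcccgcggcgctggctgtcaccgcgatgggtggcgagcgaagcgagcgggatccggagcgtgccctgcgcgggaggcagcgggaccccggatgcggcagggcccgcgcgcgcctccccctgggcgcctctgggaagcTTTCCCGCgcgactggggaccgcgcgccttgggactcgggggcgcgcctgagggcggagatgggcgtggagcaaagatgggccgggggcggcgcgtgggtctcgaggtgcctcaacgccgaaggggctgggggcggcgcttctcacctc
Cdkn2a, p16INK4a start, chr4:89282143-89282442, minus strand: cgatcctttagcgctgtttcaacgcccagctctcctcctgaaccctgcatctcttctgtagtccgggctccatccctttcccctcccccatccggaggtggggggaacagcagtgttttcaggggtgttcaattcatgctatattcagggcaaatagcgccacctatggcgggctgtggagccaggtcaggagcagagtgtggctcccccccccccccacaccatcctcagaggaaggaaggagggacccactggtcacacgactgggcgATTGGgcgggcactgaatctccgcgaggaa
E2f7, chr10:110745189-110745488, plus strand: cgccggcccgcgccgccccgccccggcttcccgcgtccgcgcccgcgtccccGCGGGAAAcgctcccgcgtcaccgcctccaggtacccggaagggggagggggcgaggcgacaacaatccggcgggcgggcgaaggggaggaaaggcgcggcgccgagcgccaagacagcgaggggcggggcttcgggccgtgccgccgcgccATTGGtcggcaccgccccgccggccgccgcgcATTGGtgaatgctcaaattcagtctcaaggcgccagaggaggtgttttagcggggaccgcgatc
E2f8, chr7:48881547-48881846, minus strand: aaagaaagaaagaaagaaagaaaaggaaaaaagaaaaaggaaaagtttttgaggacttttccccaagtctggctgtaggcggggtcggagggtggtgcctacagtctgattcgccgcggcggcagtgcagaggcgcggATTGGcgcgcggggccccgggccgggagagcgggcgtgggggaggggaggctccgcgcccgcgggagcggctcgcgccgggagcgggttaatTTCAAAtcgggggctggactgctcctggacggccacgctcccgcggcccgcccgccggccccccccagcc
Sesn1, chr10:41887189-41887488, plus strand: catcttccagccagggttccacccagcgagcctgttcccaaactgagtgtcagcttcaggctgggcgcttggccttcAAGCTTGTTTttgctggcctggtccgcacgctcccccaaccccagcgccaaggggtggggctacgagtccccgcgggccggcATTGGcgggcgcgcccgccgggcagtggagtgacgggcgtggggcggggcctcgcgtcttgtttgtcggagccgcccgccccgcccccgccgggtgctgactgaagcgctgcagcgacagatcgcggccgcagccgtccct
Ccnb1, chr13:100786437-100786736, minus strand: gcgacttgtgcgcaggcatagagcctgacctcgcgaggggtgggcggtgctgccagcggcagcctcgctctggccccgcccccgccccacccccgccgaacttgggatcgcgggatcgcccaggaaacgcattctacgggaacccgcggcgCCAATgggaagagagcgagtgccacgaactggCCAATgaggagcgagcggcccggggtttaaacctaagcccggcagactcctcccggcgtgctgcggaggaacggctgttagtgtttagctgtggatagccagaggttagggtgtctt

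The p19ARF window of *Cdkn2a* holds an E2F site 92 bases upstream of the start site, and the *E2f7* window holds one 191 bases upstream. The *E2f8* window holds a CCAAT box 108 bases upstream and a cell cycle homology region 15 bases upstream. The *Sesn1* window, which is 1 of 2 for that gene, holds the p53 unit 164 bases upstream. *Ccnb1* holds 2 CCAAT boxes, 95 and 63 bases upstream. None of the 4 genes that fell and had a window held the E-box letters, which 8 of the members' 46 windows (17.4%) and 7.15% of all 32851 windows hold; the 8 are in *Cdk4*, *Cdk6*, *Cdk7*, *Cdkn2c*, *E2f3*, *Trp53*, *Bbc3* and *Bax*. E2F sites stood in 15.2% of the members' windows and 3.32% of all windows, CCAAT boxes in 54.3% and 37.4%, and the p53 unit in 17.4% and 8.36%. The cell cycle homology region stood in 19.6% and 17.9%. Of the 4 genes that fell and had a window, all 4 held a CCAAT box and 2 an E2F site. The cell cycle homology region and the p53 unit were each held by 1 of the 4. A match describes letters in a window and not a bound site.

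The values are FPKM, fragments scaled to transcript length and to the mapped fragments of the library, as estimated by the authors for each feature. FPKM carry no read counts. Sequencing depth is therefore unknown, and precision is judged from the replicates. The median feature had 2.32 to 2.46 FPKM in the 4 libraries. Features without a symbol took 26.8% and 37.3% of the summed FPKM in WT and 19.0% and 18.1% in KO. The pluripotency genes *Pou5f1* and *Dppa5a* stood at 1389 to 1620 and 2881 to 3045 FPKM. Over the 9 features of 8 pluripotency markers, 7 had estimates below 0 and 2 above in the limma comparison described below. *Klf4* (log2 fold change -0.46) and *Tdgf1* (-0.36) were lower in KO at an adjusted p under 0.05. That is 22.2% of the 9, against 5.6% of all tested features. Of 7 fibroblast markers, all but *Thy1* were below 1 FPKM in every library, with *Dcn* listed at 0 in 3 libraries and *Col3a1* in 3. Their sum was 2.32 and 2.04 FPKM in WT and 3.40 and 2.78 in KO. Of 8 primitive endoderm markers, all but *Lama1* were below 1 FPKM. The sum over all 8 was 10.5 and 9.76 in WT and 9.20 and 9.44 in KO. Most of it was *Lama1*, with 9.32 and 8.50 FPKM in WT and 7.24 and 7.60 in KO. Of the low markers, *Sox7* (0.260 and 0.247 FPKM in WT, 0.709 and 0.627 in KO), *Dab2*, *Foxa2* and *Pdgfra* had higher values in KO. *Gata4* had lower values in KO, and *Gata6* and *Sox17* overlapped between the lines. Apart from *Gata4*, these low markers were not tested. *Arntl* itself had 6.05 and 6.29 FPKM in WT and 5.95 and 5.92 in KO (log2 fold change -0.06, adjusted p = 0.750), and since the deletion shifts the reading frame, its RNA level is no check of the protein. The lines differed in RNA from chromosome Y: *Ddx3y* had 0.235 and 0.403 FPKM in WT and 16.4 and 20.6 in KO, and 5 of 8 tested features of that chromosome were higher in KO. Whether this difference bears on any gene below was not tested.

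The comparison of KO with WT asks which of these genes differ in RNA level between the KO line and the WT line. FPKM were compared as log2(FPKM + 0.1) in limma, a linear model with a variance shared across features, with Benjamini-Hochberg adjustment over the 12990 features whose mean was at least 0.5 FPKM. All 49 member features were tested. A feature passed when its adjusted p was under 0.05. Every fold change below is on this log2 scale, KO minus WT. With 2 libraries against 2, an exact permutation test of a single gene cannot go below p = 0.333, so each call rests on the shared variance.

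Most cell cycle and p53 genes showed differences of less than 2-fold. Of the 49 member features, 9 passed (18.4%, against 12.5% of all tested features), of which 8 were lower in KO (16.3%, against 5.6%) and 1 was higher (2.04%, against 6.85%). The features that fell belong to *Cdkn2a*, *Ccne2* (both features), *Ccnd1*, *E2f8*, *E2f7*, *Sesn1* and *Trp53inp1*, and the one that rose is *Pmaip1*. Without the 2 features of *Ccne2*, 7 of 47 passed (14.9%), 6 of them lower (12.8% of the 47) and 1 higher (2.13%). Only *Cdkn2a* and 1 feature of *Ccne2* passed with a change of more than 2-fold, 2 of 49 against 4.14% of all features (1.42% lower and 2.72% higher), and both were lower. When FPKM were rescaled to the features with a symbol, 3 member features were higher and 7 lower, and over all features 1077 were higher and 517 lower in place of 890 and 728. The other 40 features did not pass, and 16 of the 49 (32.7%) had an unadjusted p under 0.05, against 29.6% of all tested features. The median log2 fold change of the members was -0.08, beside -0.02 over all tested features, and their estimates ran from -2.03 to 0.53, with 27 of the 49 (55.1%) below 0 against 53.2% of all tested features. For 44 of the 49 features the 95% interval stayed within 2-fold in both directions. Both KO libraries lay below both WT libraries at 19 member features and above them at 11, together 61.2%, against 58.8% of all tested features. The replicate SD on the log2 scale had a median of 0.10 over the members and 0.12 over all features.

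**Figure D1:**
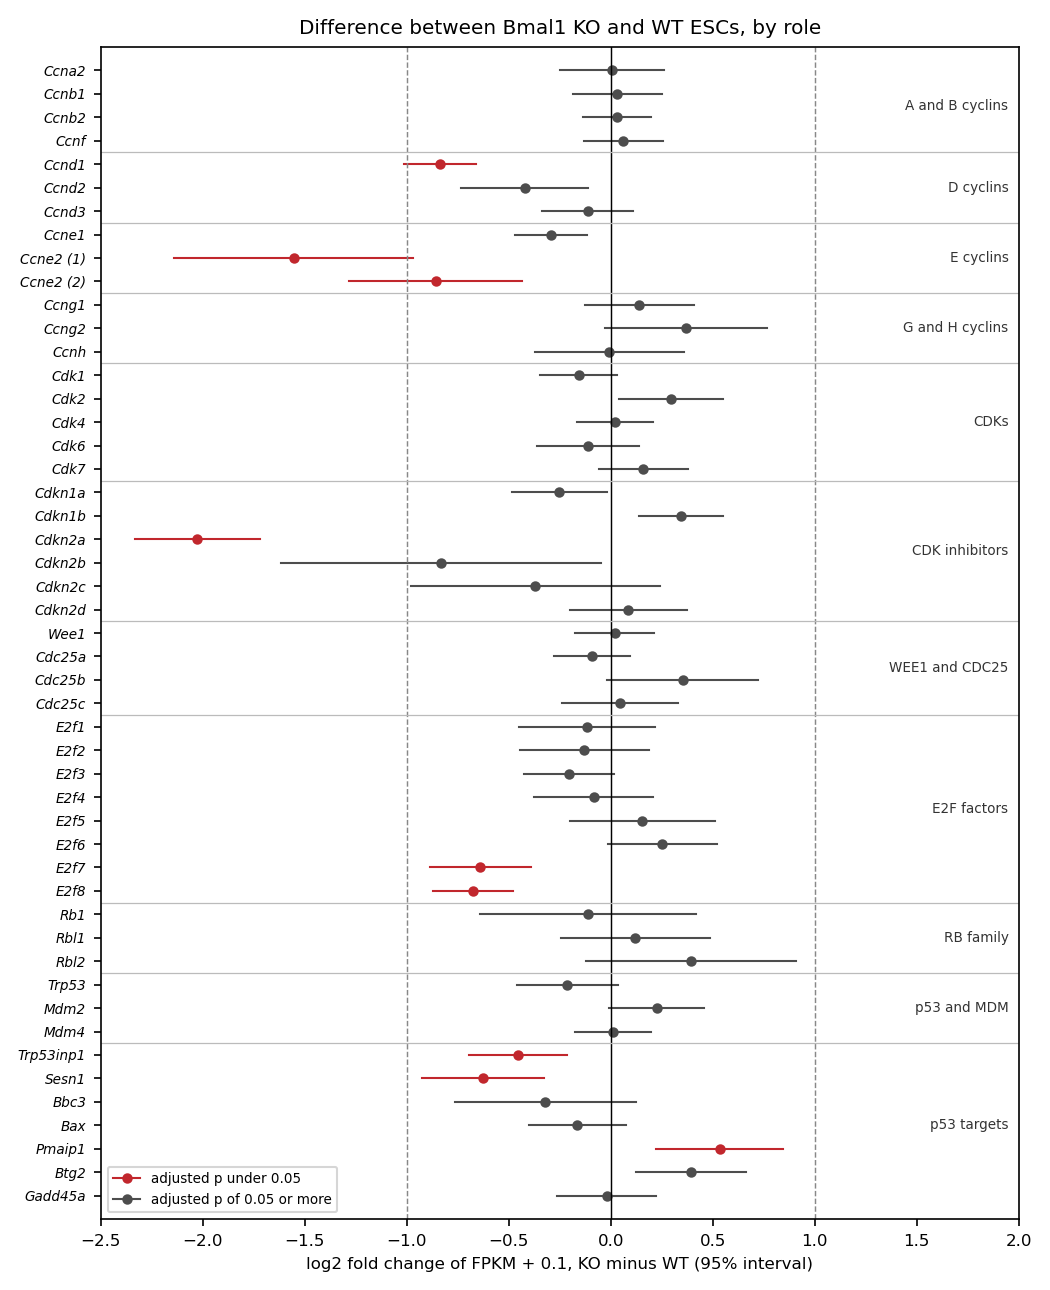
Log2 fold change of FPKM + 0.1 (KO minus WT, horizontal axis) for the 49 member features grouped by role, with 95% intervals from limma (n = 2 libraries per group); red marks an adjusted p under 0.05 and dashed lines mark 2-fold. The 8 red points left of 0 include *Cdkn2a* at -2.03, the 1 red point right of 0 is *Pmaip1* at 0.53, and the A and B cyclins lie close to 0.

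**Figure D2:**
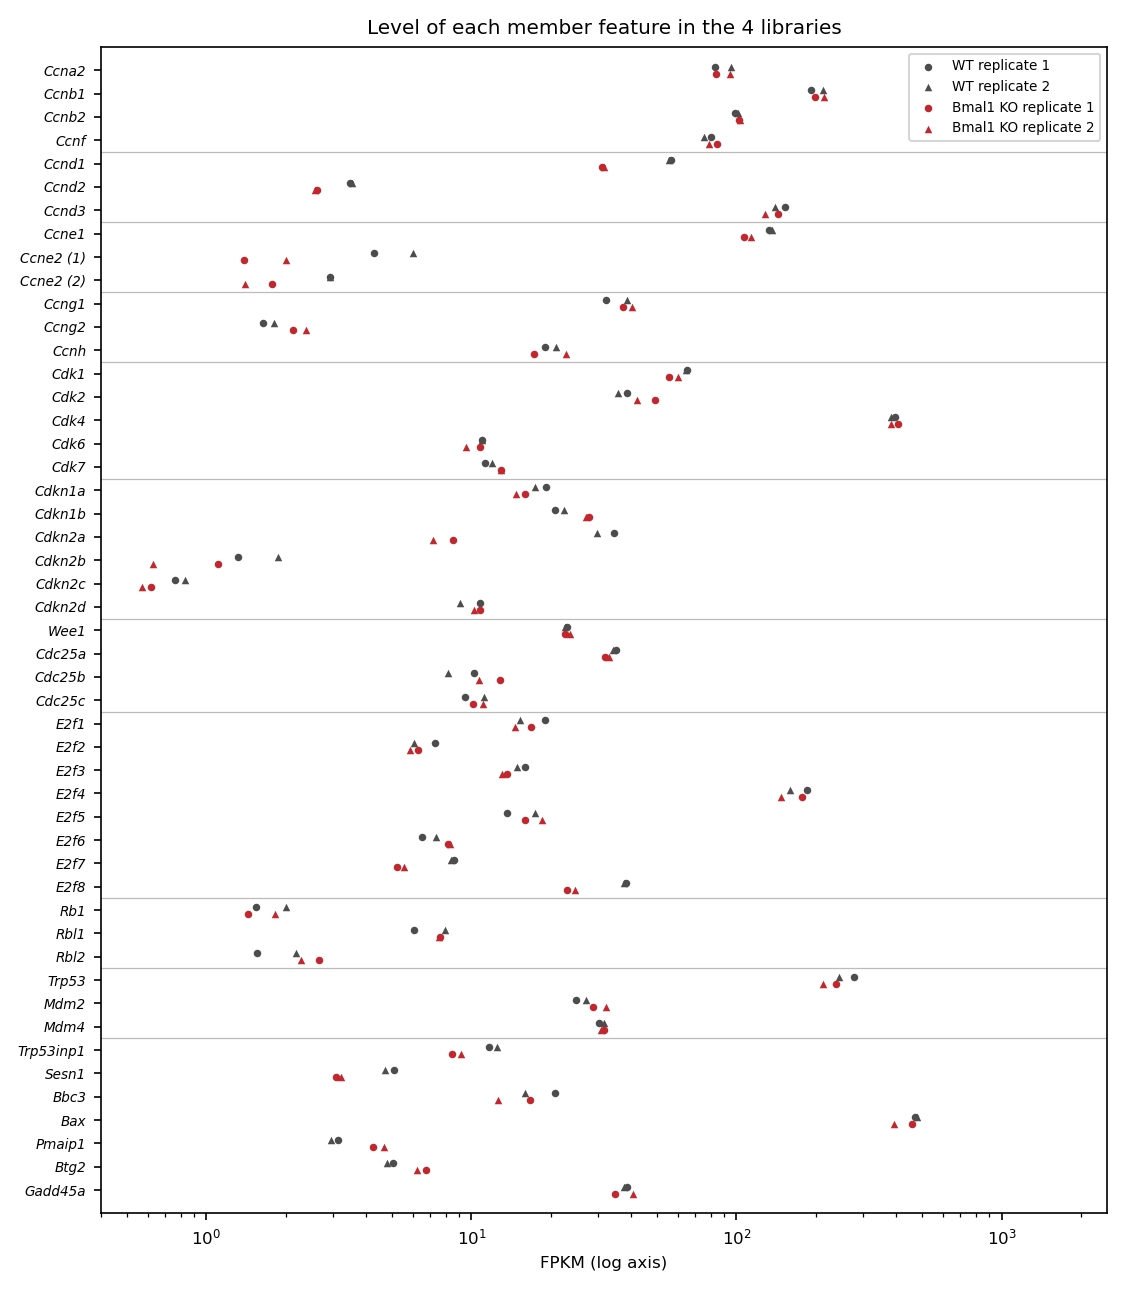
FPKM of each member feature (log axis) in the 4 libraries, circles for replicate 1 and triangles for replicate 2, grey for WT and red for *Bmal1* KO. Levels run from *Cdkn2c*, below 1 FPKM in every library, to *Cdk4* and *Bax*, from 382 to 481 FPKM; the red and grey points of *Cdkn2a*, *Ccnd1*, *Ccne2*, *E2f7* and *E2f8* stand apart.

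The CDK inhibitors held the member with the largest change. *Cdkn2a* (chr4:89274473-89294619), which encodes the CDK4/6 inhibitor p16INK4a and the MDM2 inhibitor p19ARF, had 34.5 and 29.9 FPKM in WT and 8.50 and 7.14 in KO. Both KO libraries lay far below both WT libraries, with a WT mean 4.11-fold the KO mean. The log2 fold change was -2.03 (SE 0.12, adjusted p = 0.00169 from limma). One FPKM is given for the whole gene, so the p16INK4a and p19ARF transcripts cannot be told apart, and neither can fewer expressing cells and less RNA per cell in these bulk samples. Its neighbour *Cdkn2b*, which encodes the INK4 protein p15, was lowly expressed at 1.32 and 1.87 FPKM in WT and 1.11 and 0.630 in KO. Those groups did not overlap, but the estimate of -0.83 had the widest replicate spread of the members (SD 0.43) and did not pass (adjusted p = 0.150).

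Neither of the CIP/KIP members passed in the main comparison. *Cdkn1a* encodes p21, the CDK inhibitor that p53 induces, and its FPKM was 19.1 and 17.4 in WT and 15.9 and 14.7 in KO. The KO libraries lay just below the WT libraries (-0.25, 95% interval -0.49 to -0.02), and the difference did not pass (adjusted p = 0.143). *Cdkn1b*, which encodes p27, had 20.6 and 22.4 FPKM in WT and 27.8 and 27.0 in KO. Here the KO libraries lay above the WT libraries, by 0.35 (SE 0.08), close to the threshold (adjusted p = 0.0520). *Cdkn1b* did pass under quantile normalization (adjusted p = 0.0443), median-of-ratios scaling (0.0424), rescaled FPKM (0.029) and a minimum mean of 1 FPKM (0.0488). *Cdkn2c* (p18) stayed under 1 FPKM with an estimate of -0.37 and *Cdkn2d* (p19INK4d) had 0.09, neither of which passed. In this family 1 of 6 features passed (16.7%, against 12.5% of all tested features). An unadjusted p under 0.05 was found for 4 of 6 (66.7%, against 29.6%).

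Summed over the 6 CDK inhibitors, FPKM was 87.1 and 81.6 in WT and 64.7 and 60.3 in KO. *Cdkn2a* made up 39.6% and 36.6% of that sum in WT and was its largest member there, whereas in KO it made up 13.1% and 11.8%. *Cdkn1b* went from 23.7% and 27.5% to 42.9% and 44.8% and was the largest member in KO. These shares describe the mix of RNA and are not tested separately.

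Among the D cyclins, which couple growth signals to CDK4 and CDK6, *Ccnd1* (chr7:144929931-144945372) fell. It had 56.4 and 55.9 FPKM in WT and 31.1 and 31.7 in KO. Its feature spans 15442 bases, against 9995 for the gene, and overlaps another coding gene annotated as *LTO1*. The replicates were close to each other and the groups far apart, with a log2 fold change of -0.84 (SE 0.07, adjusted p = 0.00410 from limma). *Ccnd2* had 3.50 and 3.54 FPKM in WT and 2.62 and 2.58 in KO, a non-overlapping difference of -0.42 that did not pass (adjusted p = 0.0880). *Ccnd3* was the most abundant D cyclin, at 153 and 140 FPKM in WT and 143 and 128 in KO. Its groups overlapped (-0.11, 95% interval -0.34 to 0.11, adjusted p = 0.456). With *Ccnd3* dominant, the share of *Ccnd1* in D cyclin FPKM was 26.5% and 28.0% in WT and 17.6% and 19.5% in KO, and the family sum was 213 and 199 in WT and 177 and 162 in KO.

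**Figure D3:**
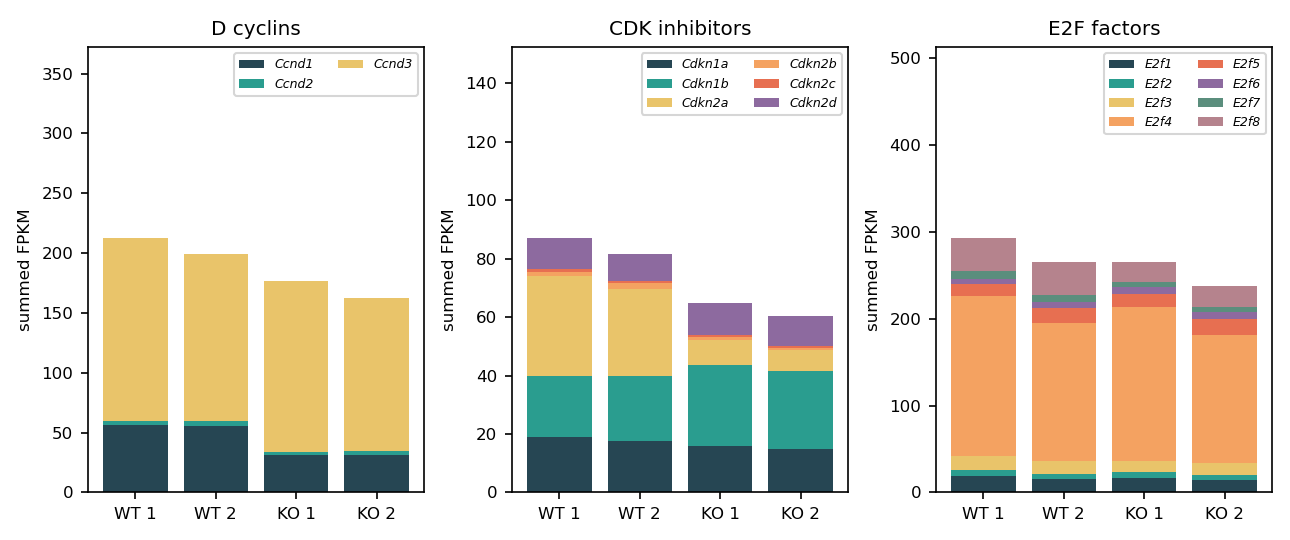
Stacked bars of summed FPKM per library for the D cyclins, the CDK inhibitors and the E2F factors. *Cdkn2a* is the widest band of the CDK inhibitors in WT (34.5 and 29.9 FPKM) and a narrow one in KO (8.50 and 7.14), and *Ccnd3* and *E2f4* fill most of the bars of their families in all 4 libraries.

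The E cyclins activate CDK2 at the start of DNA replication, and both had lower values in KO. *Ccne1* was abundant, at 133 and 137 FPKM in WT and 107 and 113 in KO. The groups did not overlap, and the estimate of -0.29 (SE 0.07) lay just outside the threshold (adjusted p = 0.0540). Both *Ccne2* features lie at chr4:11175694-11254259, a stretch that also carries *Ints8*, a subunit of the Integrator complex. One feature had 4.29 and 6.01 FPKM in WT and 1.39 and 1.99 in KO. The other had 2.94 and 2.93 in WT and 1.77 and 1.40 in KO. Both passed, at -1.55 (SE 0.24, adjusted p = 0.0153) and -0.86 (SE 0.17, adjusted p = 0.0310), the latter losing its call without KO replicate 2 (adjusted p = 0.066). Their sum, 7.23 and 8.94 FPKM in WT and 3.16 and 3.39 in KO, fell by 1.27 on the log2 scale (SE 0.14, adjusted p = 0.00670). How the authors' counting divided reads between the *Ccne2* features and *Ints8* is uncertain. *Ints8* had 15.7 and 17.8 FPKM in WT and 8.40 and 9.11 in KO.

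None of the A and B cyclins, which act in S phase and mitosis, passed in limma, and none of the 4 had an unadjusted p under 0.05. *Ccnb1* had 191 and 212 FPKM in WT and 197 and 215 in KO, so the libraries interleaved, and the 95% interval of its difference was -0.19 to 0.25. *Ccna2*, *Ccnb2* and *Ccnf* had estimates of 0.01, 0.03 and 0.06. The *Ccna2* feature also holds *Exosc9*. *Ccnh*, the partner of the CDK-activating kinase CDK7, had -0.01 with a 95% interval of -0.37 to 0.36. *Ccng1* and *Ccng2* encode cyclins linked to growth arrest, *Ccng1* being a p53 target, and had 0.14 and 0.37. *Ccng2* was expressed at only 1.63 to 2.37 FPKM, with both KO libraries above both WT libraries (adjusted p = 0.194).

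The CDKs had estimates between -0.16 and 0.30. *Cdk1*, the mitotic kinase, had 64.9 and 64.6 FPKM in WT and 55.9 and 60.4 in KO. The KO libraries were the lower, by 0.16 with a 95% interval of -0.35 to 0.03 for the difference, which did not pass (adjusted p = 0.232). *Cdk4* was among the most abundant members, at 396 and 382 FPKM in WT and 406 and 383 in KO, and the libraries interleaved (0.02). *Cdk6*, its close relative, had 10.93 and 10.98 in WT and 10.8 and 9.55 in KO (-0.11, adjusted p = 0.510), and *Cdk4* made up 97.2% to 97.6% of the FPKM of the pair. *Cdk2* had 38.8 and 35.6 FPKM in WT and 49.4 and 42.2 in KO, with the KO libraries higher by 0.30 (adjusted p = 0.125), in a feature that spans *Dgka* and *Pmel* as well. *Cdk7* had 0.16 (adjusted p = 0.288). None of the 5 passed in limma, and 1 of them, *Cdk2*, had an unadjusted p under 0.05.

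*Wee1* (chr7:110118919-110145423), the clock-linked kinase that inhibits CDK1, had 22.95 and 22.5 FPKM in WT and 22.6 and 23.5 in KO. The libraries of the 2 lines interleaved within a narrow range. The log2 fold change was 0.02 (SE 0.08, 95% interval -0.17 to 0.21, adjusted p = 0.888). The whole interval lies well within 2-fold, and the estimate stayed between -0.01 and 0.09 over the 14 other settings. The CDC25 phosphatases oppose WEE1, and *Cdc25a*, *Cdc25b* and *Cdc25c* had -0.09, 0.35 and 0.04. *Cdc25b* had an adjusted p of 0.184, and its feature spans 11 other coding genes. None of these 4 passed in limma or had an unadjusted p under 0.05.

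In the E2F family the members that fell were *E2f7* and *E2f8*, the atypical E2Fs, which repress E2F targets late in S phase. *E2f8* (chr7:48866399-48882778) had 38.2 and 37.7 FPKM in WT and 22.9 and 24.6 in KO. *E2f7* (chr10:110745465-110787384) had 8.61 and 8.35 in WT and 5.25 and 5.57 in KO. In both genes the replicates were close and the groups did not overlap, with log2 fold changes of -0.68 (SE 0.08, adjusted p = 0.00781) and -0.64 (SE 0.10, adjusted p = 0.0167). The activators did not pass: *E2f1* had 19.0 and 15.2 FPKM in WT and 16.8 and 14.6 in KO, overlapping values with an estimate of -0.12 (adjusted p = 0.616). *E2f2* and *E2f3* had -0.13 and -0.20. The repressors *E2f4*, *E2f5* and *E2f6* had -0.08, 0.15 and 0.25, and *E2f4* is listed only in a feature merged with its neighbour *Elmo3*. That merged feature held 59.8% to 66.5% of E2F FPKM, and the share of *E2f8* was 13.04% and 14.2% in WT and 8.63% and 10.3% in KO. Of the 8 E2F features 2 passed (25.0%, against 12.5% of all tested features). The same number had an unadjusted p under 0.05, against 29.6% of all tested features.

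The RB proteins bind and silence E2F factors. *Rb1* was expressed at 1.53 and 2.00 FPKM in WT and 1.43 and 1.82 in KO, so the groups overlapped (-0.11, 95% interval -0.64 to 0.42). Its feature also contains *Lpar6* and *Rcbtb2*. *Rbl1* and *Rbl2*, which encode p107 and p130, had 0.12 and 0.39. None of the 3 passed in limma or had an unadjusted p under 0.05, and their intervals are among the wide ones.

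*Trp53*, which encodes p53, was highly expressed at 279 and 243 FPKM in WT and 237 and 212 in KO. The KO libraries lay slightly below the WT libraries (-0.21, 95% interval -0.46 to 0.04, adjusted p = 0.224). *Mdm2*, the ubiquitin ligase that degrades p53 and is itself a p53 target, had 24.9 and 27.1 FPKM in WT and 28.8 and 32.1 in KO. Its KO libraries lay slightly above (0.22, 95% interval -0.01 to 0.46, adjusted p = 0.180). *Mdm4*, its partner, had 0.01. None of these 3 passed in limma, and none had an unadjusted p under 0.05.

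The 7 p53 targets did not share a direction. *Sesn1* (chr10:41810574-41908436), which encodes a sestrin of antioxidant defence and mTORC1 control, had 5.12 and 4.71 FPKM in WT and 3.08 and 3.21 in KO. *Trp53inp1*, which encodes a stress protein that promotes p53 activity, had 11.6 and 12.5 in WT and 8.43 and 9.11 in KO. Both fell without overlap, by 0.63 (SE 0.12, adjusted p = 0.0285) and 0.45 (SE 0.10, adjusted p = 0.0382) on the log2 scale. *Pmaip1*, which encodes the pro-apoptotic BH3 protein NOXA, had 3.13 and 2.95 FPKM in WT and 4.24 and 4.67 in KO. It was the one member that rose, by 0.53 (SE 0.13, adjusted p = 0.0486), and it lost its call when any 1 of the 4 libraries was left out, with adjusted p up to 0.162 over all settings tried. *Sesn1* lost its call without WT replicate 1 (adjusted p = 0.0668) or KO replicate 1 (0.0625), and *Trp53inp1* without WT replicate 2 (0.111) or KO replicate 1 (0.117).

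The other p53 targets did not pass. *Btg2*, an antiproliferative gene, had 0.39 (adjusted p = 0.0751) with both KO libraries above both WT libraries. The apoptosis genes *Bbc3*, which encodes PUMA, and *Bax* had -0.32 and -0.16, and *Bax* was one of the most abundant members at 393 to 481 FPKM. *Gadd45a*, a gene of arrest and repair, had -0.02, in a feature far longer than the gene. Of the 7, then, 1 passed higher (14.3%, against 6.85% of all tested features) and 2 passed lower (28.6%, against 5.6%). With *Cdkn1a*, *Mdm2* and *Ccng1*, which p53 also activates, the estimates of these 10 genes ran from -0.63 to 0.53.

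Where the members that fell lie in the genome differed between them. *Ccne2* and *Trp53inp1* are neighbours on chromosome 4, and the genes around them were lower in KO too. From *Ndufaf6* to *Fam92a* (chr4:11051046-12172015, 1121 kb), all 15 tested features with a symbol had estimates below 0 and 14 of them passed, with a median of -0.93. The 12 features there that are no members ran from -2.19 (*Esrp1*, an epithelial splicing factor) to -0.59, and 11 of them passed. Just outside, *Plekhf2* had 0.22 and *2610301B20Rik* 0.07 on one side, and *Otud6b* had -0.10 and *Tmem55a* 0.00 on the other. The 902 tested features of chromosome 4 had a median of -0.06. The boundaries of this stretch were set after the values were seen, so these are descriptions with no test, and copy number was not measured.

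*Cdkn2a* and *Cdkn2b* lie elsewhere on chromosome 4, beside *Mtap*, a gene of methionine salvage. *Mtap* had 33.4 and 34.8 FPKM in WT and 16.9 and 18.5 in KO, and it fell by 0.94 on the log2 scale (SE 0.09, adjusted p = 0.00473). So all 3 tested features from *Mtap* to *Cdkn2b* (chr4:89137370-89311032, 174 kb) had estimates below 0. The next tested genes with a symbol were *Klhl9* at -0.14 and *Focad* at 0.08 on one side and *Elavl2* at -0.34 on the other, none of which passed. Between *Cdkn2b* and *Elavl2*, close to the latter, lie 4 tested features without a symbol, all near 1 FPKM or below in WT, of which 3 had estimates below 0 and 1 passed lower (-1.40, adjusted p = 0.0377). No such surroundings were seen for *E2f8*, *E2f7* and *Sesn1*. The 10 tested features nearest to *E2f8*, *E2f7* and *Sesn1* had medians of -0.05, 0.04 and -0.04, and none of those features passed lower. Around *Ccnd1* the 6 flanking features had a median of 0.26, with *Fgf15* lower in KO (-0.79, adjusted p = 0.0113) and *Fgf4* higher (0.30, adjusted p = 0.0493). Over the 49 member features the flanking medians had a median of -0.04, and those around *Ccne2* and *Trp53inp1*, at -0.72, were the lowest, followed by -0.23.

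**Figure D4:**
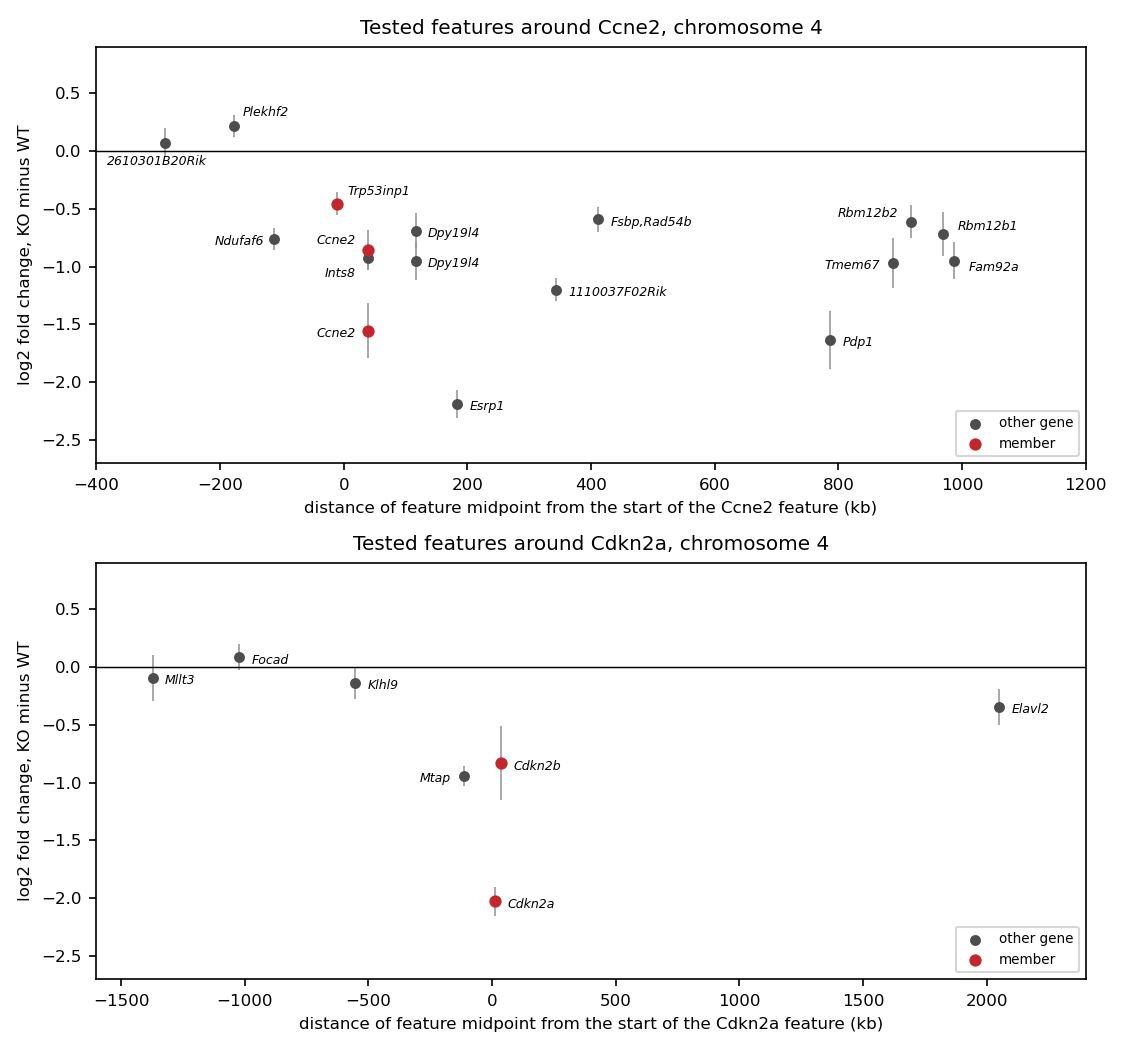
Log2 fold change (KO minus WT, with the standard error) of the tested features with a symbol against the distance of their midpoint from the start of *Ccne2* (upper panel) and of *Cdkn2a* (lower panel) in kb; members are red. In the upper panel the points from *Ndufaf6* to *Fam92a* lie between -2.19 and -0.45, while *Plekhf2* and *2610301B20Rik* lie above 0. In the lower panel *Mtap*, *Cdkn2a* and *Cdkn2b* lie below the other genes shown.

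Among the other genes of these pathways, taken from lists of textbook functions, a further CDK inhibitor had the largest change of the cell cycle and p53 lists. Of 116 tested cell cycle genes that are no members, 4 passed higher in KO (3.45%, against 6.85% of all features) and 6 lower (5.17%, against 5.6%). The median of the 116 was -0.02, and in all 10 passed (8.62%, against 12.5% of all features). The count was 7, 6, 4 and 5 without WT replicate 1, WT replicate 2, KO replicate 1 and KO replicate 2. The one past 2-fold was *Cdkn1c*, which encodes the CIP/KIP inhibitor p57 and had 7.99 and 8.89 FPKM in WT and 25.4 and 25.8 in KO. It rose by 1.59 on the log2 scale (SE 0.09, adjusted p = 0.00169) and passed in all 14 other settings, as did *Gins2*, so among the CDK inhibitors it and *Cdkn2a* changed in opposite directions. The genes that fell act in DNA replication or the damage response: *Gins2*, *Gins3* and *Cdc6* of replication licensing (-0.52, -0.42 and -0.38), *Rpa1* and *Rpa2*, which bind single-stranded DNA (-0.40 and -0.35), and the histone gene *H2afx* (-0.36). The others that rose were *Cdk17* (0.48), *Trp53bp1* (0.43) and *Pttg1*, which encodes securin (0.37). Over the 14 other settings *Rpa1* passed in 11, *Rpa2* in 8, *Gins3* in 7, and *Cdc6* and *H2afx* in 6. *Cdk17* and *Pttg1* passed in 10 and *Trp53bp1* in 8. The *Gins2* feature overlaps *Gse1* and is 100608 bases long, against 10672 for the gene.

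By function, 3 of 23 replication licensing genes fell and none rose, with a median of -0.07 that became 0.01 when FPKM were rescaled to the features with a symbol. Of 21 DNA synthesis genes 2 fell (9.52%, against 5.6% of all features), and 1 under that rescaling. Estimates were below 0 for 19 of the 21 (90.5%, against 53.2% of all features), with a median of -0.14. Under that rescaling they were below 0 for 15 of the 21, with a median of -0.07 beside 0.05 over all features. The share below 0 over all features is not given for the rescaled values. Of 30 mitosis genes 1 rose (3.33%, against 6.85% of all features), with a median of 0.01. Estimates were below 0 for 14 of the 30 (46.7%, against 53.2% of all features). Under that rescaling they were below 0 for 4, with a median of 0.08 beside 0.05 over all features. Of 19 checkpoint and damage genes 1 rose and 1 fell (5.26% each, against 6.85% and 5.6%). Of 25 tested p53 targets that are no members, 5 passed. They have 26 features because *Psrc1* has 2, so this was 19.2% of the features, against 12.5% of all tested features. *Plk2*, *Plk3* and *Pml* rose by 0.56, 0.38 and 0.37, and *Perp* and *Gdf15* fell by 0.82 and 0.65 on the log2 scale. The list median was 0.05. *Perp* and *Gdf15* passed in all 14 other settings, and the count was 3 without WT replicate 1 or KO replicate 2. In the BCL2 family, which controls apoptosis, 1 of 11 tested genes fell (*Bok*, -0.63) and 0 rose in limma. The fall of 1 gene is 9.09%, against 5.6% of all features. An unadjusted p under 0.05 was found for 5 of the 11 (45.5%, against 29.6%). Of 14 tested clock genes 3 rose (21.4%, against 6.85% of all features). These were *Bhlhe40* (2.62 and 2.79 FPKM in WT, 12.2 and 10.03 in KO, log2 fold change 1.99, adjusted p = 0.00226), *Dbp* (1.65 and 1.499 in WT, 4.40 and 4.17 in KO, log2 fold change 1.39, adjusted p = 0.00576) and *Tef* (0.78, adjusted p = 0.0174). The other 11 did not pass, with estimates from -0.33 (*Per3*) to 0.37 (*Per1*). The *Dbp* feature overlaps *Rpl18* and *Sphk2*, and the *Bhlhe40* feature is 89890 bases long, against 6297 for the gene.

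**Figure D5:**
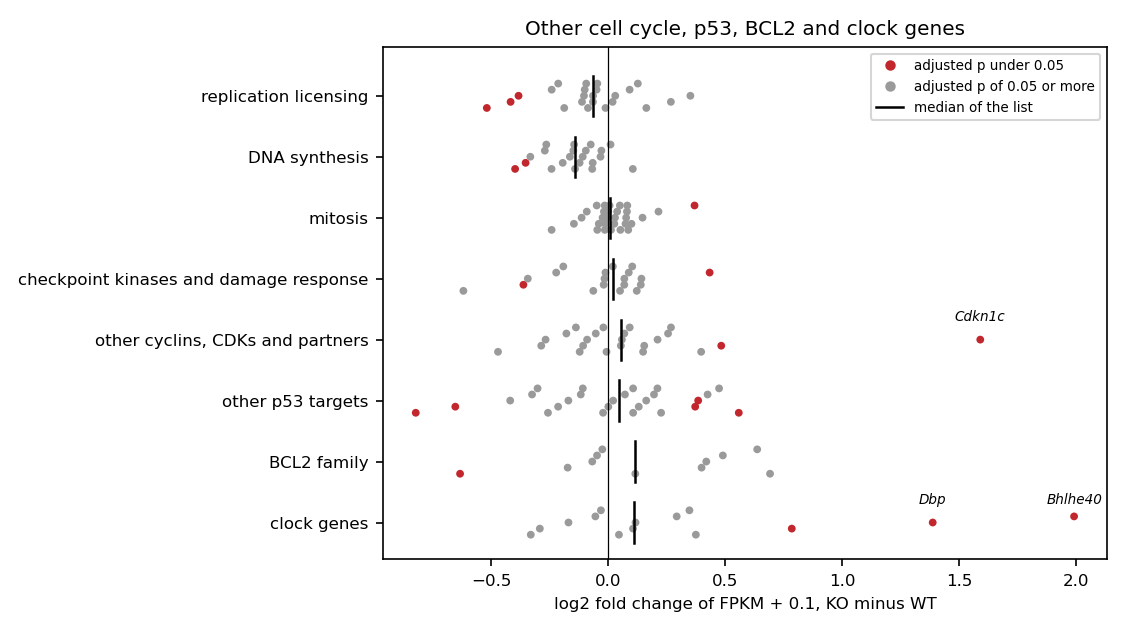
Log2 fold change (KO minus WT) of the tested genes in 8 lists of other cell cycle, p53, BCL2 and clock genes, 1 point a feature (*Psrc1* has 2), with the list median as a bar and red for an adjusted p under 0.05. The medians lie between -0.14 and 0.12, and the points past 2-fold are *Cdkn1c* at 1.59, *Dbp* at 1.39 and *Bhlhe40* at 1.99.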

How the data were processed

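RNA was sequenced from 2 libraries of WT and 2 of *Bmal1* KO mouse ESCs. Per the labels, the authors aligned reads to GRCm38 with TopHat2 2.1.1 and Bowtie2 2.3.0 and estimated FPKM with Cufflinks 2.2.1, and the deposited values are these FPKM per feature. No counts are given and whole reads could not be recovered from the low values, so depth is unknown. FPKM + 0.1 was log2-transformed, and features whose mean was under 0.5 were left out, which kept 12990 of 19645. The 2 lines were compared in limma 3.58.1 (R 4.3.3), with a variance trend and Benjamini-Hochberg adjustment over all tested features, and the code was tested on simulated data. Values are given in every library for members with an adjusted p under 0.05 and for 15 key genes. Other genes are named where they passed, flank a member, mark a cell type or line, or end a range. The members, lists and tests were chosen with earlier results of these data known. Python 3.11.15, pandas 2.3.3 and matplotlib 3.10.9 did the rest. In 16 of the 49 member features other coding genes share the coordinates, so reads may be divided between them, and whether counting used strand is not given in the sources used here. The alternatives were other pseudocounts, filters, scalings, a replicate block, no variance trend, features summed by symbol and each library left out.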

Additional observations from a re-analysis of the deposited data

How the results depend on the processing

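Of the 9 member features that passed, all 9 kept their direction in each of 14 other settings that gave them a value, and 5 passed in every one (*Cdkn2a*, *Ccnd1*, *E2f7*, *E2f8* and the more expressed *Ccne2* feature); 28 member features never passed. Calls were lost for the other *Ccne2* feature, *Sesn1*, *Trp53inp1* and *Pmaip1*. Without the block below, calls were gained for *Cdkn1b* (4 settings), *Cdkn2b* (without WT replicate 1 or KO replicate 1), *Cdc25b* (without WT replicate 1), *Bbc3* (without WT replicate 2) and *Btg2* (rescaled FPKM). Of the members 8 were lower and 1 higher: with no filter on low values 5 and 0, while the number higher was 2 with a minimum mean FPKM of 1, 2 with median-of-ratios scaling, 0 without the variance trend and 3 with FPKM rescaled to features with a symbol, a setting chosen after seeing the data. Leaving out 1 library gave 7 to 8 lower, 0 to 1 higher and 2 to 4 past 2-fold in place of 2 (4 without KO replicate 1). The 10 passed cell cycle genes that are no members became 4 with no filter, 2 without the trend, 6 with rescaled FPKM and 4 to 7 with 1 library left out. The 5 passed p53 targets that are no members became 2 with no filter, 2 without the trend and 3 to 5 with 1 library left out. Over all features 1618 passed, 951 with no filter and 1364 to 2032 with 1 library left out. The cause of these changes was not tested. With no filter, p-values were adjusted over 19645 features in place of 12990. The median of the members ran from -0.08 to -0.01, and that over all tested features from -0.03 to 0.05.

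Replicate numbers are shared by WT and KO, but no source says that they pair the libraries. With the replicate number as a block, 14 member features were lower and 6 higher, 37 other cell cycle genes and 11 other p53 targets passed, and 4052 of all features passed, 1807 higher and 2245 lower; all 9 members that passed without it passed with it. The 11 features added were those of *Ccnd2*, *Ccne1*, *Cdk2*, *Cdkn1a*, *Cdkn1b*, *Cdc25b*, *E2f3*, *Trp53*, *Mdm2*, *Bbc3* and *Btg2*. Across features, which are not independent, the replicate differences of WT and KO correlated with r = 0.071 (Pearson) and rho = 0.387 (Spearman). Among values under 0.1 FPKM, ratios between same-numbered libraries repeated more often (132 of 1149 features for replicate 1, 238 of 1160 for replicate 2) than between other pairs (38 to 51). With unknown depth and 2 libraries a group, members under about 2 FPKM, such as *Cdkn2b* and *Rb1*, have wide intervals.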
